A study of Homo sapiens with 32 samples.

Results

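The nuclear-encoded subunits of the respiratory chain and ATP synthase were followed as 86 genes in Caco-2 cells, a line of human colon adenocarcinoma cells that grows as an intestinal epithelium. The members were taken by symbol, as the NDUF, SDH, UQCR, CYC1, COX4 to COX8 and ATP5 subunit genes without pseudogenes and assembly factors. They made up 86 of 60107 rows of the count table, of which 30677 had at least 1 count. 37 belonged to complex I, 4 to complex II, 10 to complex III, 18 to complex IV and 17 to complex V. NDUFA4 was placed with complex IV, whose subunit it encodes.

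RNA was sequenced from the 3′ end in 32 libraries. WT cells carried no construct. The e.v. cells carried lentiviral Cas9 and an empty guide vector, and the cl.21 cells carried Cas9 and a guide against HIF1A, the oxygen-regulated subunit of hypoxia-inducible factor 1. Both had gone through drug selection, and cl.21 is 1 clone, so the loss of HIF1A cannot be told apart from what else sets that clone apart. Each line was grown in 2D, in HoxBan monoculture and in HoxBan co-culture with the gut anaerobe Faecalibacterium prausnitzii. In the HoxBan tube, cells on a coverslip lie face down on nutrient agar for 18 h, with oxygen entering from above and, in co-culture, bacteria in the agar. Groups held 3 libraries each, and WT in 2D held 4. In addition, WT gave 1 library each of HoxBan culture on inulin medium, on mucin medium, and on either medium with stool bacteria in place of the single species. The labels do not say that the libraries of a group were separate cultures, so p-values measure the spread between these libraries, which may be technical.

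Complex I takes electrons from NADH and complex II, the succinate dehydrogenase of the TCA cycle, takes them from succinate. Both pass them to ubiquinone, complex III passes them on to cytochrome c and complex IV to oxygen, and complexes I, III and IV pump protons that drive complex V, the ATP synthase. Most subunits are encoded in the nucleus, and a few of complexes I, III, IV and V are encoded in mitochondrial DNA. Complexes I, III, IV and V are thus each assembled from the products of both genomes. HIF1 is known to lower respiration under low oxygen, in part through an exchange of COX4 isoforms and through PDK1, an inhibitor of pyruvate dehydrogenase.

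The libraries held 4144373 to 6686797 counts. Of 9 epithelial markers, 8 had at least 100 counts in all, and their summed level was 3002 to 6377 CPM (counts scaled to a library total of 1e+06) over the groups of the 3 lines. Of 11 markers of other cell types, none was at 0 in all libraries and 5 had under 100 counts, and their sum was 40.3 to 102 CPM, with the highest value in e.v. co-culture. HIF1A RNA itself was at 84.9 to 355 CPM over the libraries and remained present in cl.21; counts at the 3′ end do not check the edit. The share of counts from mitochondrial genes ran from 4.49 to 23.6%. In every group 1 library was far above another, for example 4.94, 5.09, 6.30 and 14.1% in WT 2D, and no label names a batch. Across the 12849 genes tested in 28 libraries, calls came from the quasi-likelihood test of edgeR. In simulated counts for the WT monoculture comparison, 7.69% of genes changed 1.5-fold were called and 62.5% of those changed 2-fold. The changed genes were drawn from all tested genes, and recovery at the levels of the members was not simulated.

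Most subunits were abundant. The members took 2.07% of all counts, 84 of 86 had at least 1 count and 80 passed the filter on low counts. The 6 others are isoforms of complex IV that are known from muscle, testis or lung. COX6A2 and COX7A1, the muscle isoforms, had 0 counts, which allows up to 0.0187 CPM at a floor of 3 counts in 160165977, for counting error only. COX7B2 had 1 count, COX4I2 had 2, COX8C had 5 and COX6B2, a testis isoform, had 63. COX4I2, the isoform that replaces COX4I1 under hypoxia in other cells, was thus at or under the floor in all 3 lines. NDUFA4L2, a HIF1 target related to NDUFA4 and no member here, had 6 counts in all libraries. COX4I1 was at 459 ± 36.8 CPM (SD, n = 4) in WT 2D. Every tested complex IV member is thus a general isoform or has only 1 form.

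Levels between genes are compared here per count, since a 3′ library gives 1 read per transcript whatever its length. The highest member was ATP5F1E, the epsilon subunit of ATP synthase, with a mean of 1595 CPM over 32 libraries. ATP5MG (subunit g) followed at 1246 CPM and ATP5MC3, a gene of the proton-carrying c ring, at 1068 CPM. ATP5MC2 and ATP5MC1, whose mature proteins are the same as that of ATP5MC3, were at 229 and 210 CPM. COX7C led complex IV at 772 CPM, UQCRB led complex III at 574 CPM, and NDUFA2 led complex I at 339 CPM. SDHC led complex II at 236 CPM. ATP5F1B and ATP5F1A, the beta and alpha subunits of ATP synthase, were at 661 and 478 CPM. NDUFS1 and NDUFV1 of complex I, which carry iron-sulphur clusters, were at 216 and 103 CPM. SDHA and SDHB were at 80.9 and 121 CPM, and CYC1, UQCRFS1 and UQCRC1 of complex III were at 107, 101 and 81.6 CPM. UQCRHL, at 1.34 CPM, is a near-identical copy of UQCRH (426 CPM), and its counts may come from that gene. Pseudogene rows named after members held 0.173% as many counts as the members themselves.

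The members varied little between libraries of a group. Their median SD within a group was 0.21 on the log2 scale, beside 0.30 for all genes tested and 0.22 for the 1901 genes at or above the lower quartile of the members' levels. The median range of the group means was 0.53 for members, 0.79 for all genes and 0.61 for the genes of like level. Single members went against this. NDUFB3, a membrane-arm subunit of complex I, was at 121, 70.0 and 22.2 CPM in the 3 e.v. monoculture libraries.

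The promoters of the members were searched for the letters bound by factors known to drive respiratory genes. NRF1 and GABPA, an ETS factor also named NRF2, are the classic regulators of these genes. RefSeq promoter windows (build GRCh38.p14) matched 69 of 86 members, and for genes with several windows the one nearest the annotated 5′ end was used. In the 250 bases before the start, the NRF1 letters GCGCATGC were present on either strand in 13 of 69 members (18.8%) and in 2.63% of 35116 promoters in the table. The ETS letters CCGGAAG were present in 17 members (24.6%) and in 8.52% of all promoters. At least 1 of both motifs was in 25 members (36.2%, against 10.7%). ATGGCG (YY1) was in 7 members (10.1%) and in 2281 of the 35116 promoters, and the HIF core ACGTG or GCGTG was in 38 (55.1%, against 43.2%). The 35116 promoters were all those of the promoter set, not matched to the members in level or base content. The windows below are those of the 5 members that were lower in cl.21 than in e.v. or WT over both HoxBan cultures, with SDHB, the iron-sulphur subunit of complex II, as a member with both motifs. Capitals mark the NRF1 and ETS letters.
SDHB: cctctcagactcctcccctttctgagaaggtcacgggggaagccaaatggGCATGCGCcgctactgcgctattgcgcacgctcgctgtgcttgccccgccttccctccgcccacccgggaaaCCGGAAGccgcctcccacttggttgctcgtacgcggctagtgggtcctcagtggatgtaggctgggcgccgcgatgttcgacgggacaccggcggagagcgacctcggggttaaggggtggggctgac
ATP5PF: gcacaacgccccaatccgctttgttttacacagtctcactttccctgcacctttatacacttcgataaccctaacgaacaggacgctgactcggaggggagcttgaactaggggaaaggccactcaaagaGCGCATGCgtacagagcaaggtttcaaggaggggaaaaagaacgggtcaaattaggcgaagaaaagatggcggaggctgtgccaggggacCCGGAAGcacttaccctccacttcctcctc
ATP5PO: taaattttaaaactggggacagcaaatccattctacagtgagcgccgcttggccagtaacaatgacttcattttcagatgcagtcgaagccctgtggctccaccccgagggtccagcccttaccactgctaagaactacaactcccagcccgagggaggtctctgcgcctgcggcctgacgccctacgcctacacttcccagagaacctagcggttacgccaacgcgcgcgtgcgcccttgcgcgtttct
NDUFV3: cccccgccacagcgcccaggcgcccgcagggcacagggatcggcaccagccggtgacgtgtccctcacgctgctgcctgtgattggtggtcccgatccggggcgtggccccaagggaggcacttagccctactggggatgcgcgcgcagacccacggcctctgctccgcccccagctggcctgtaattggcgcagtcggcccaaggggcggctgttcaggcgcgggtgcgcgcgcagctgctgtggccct
NDUFA5: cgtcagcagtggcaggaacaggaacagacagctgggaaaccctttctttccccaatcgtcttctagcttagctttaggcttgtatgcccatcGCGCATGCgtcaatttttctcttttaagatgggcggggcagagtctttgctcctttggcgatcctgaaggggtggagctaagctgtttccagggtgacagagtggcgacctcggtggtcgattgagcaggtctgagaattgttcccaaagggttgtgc
NDUFB2: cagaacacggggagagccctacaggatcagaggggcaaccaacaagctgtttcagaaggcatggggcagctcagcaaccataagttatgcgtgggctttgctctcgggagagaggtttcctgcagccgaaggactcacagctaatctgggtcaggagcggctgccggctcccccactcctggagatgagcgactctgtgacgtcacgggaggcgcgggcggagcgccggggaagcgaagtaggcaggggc
The SDHB window is chr1:17054033-17054282 on the minus strand, and it holds both motifs. The ATP5PF window, chr21:25735055-25735304 on the minus strand, also holds both. Of the other chromosome 21 members, ATP5PO (chr21:33915805-33916054, minus strand) and NDUFV3 (chr21:42893059-42893308, plus strand) have neither in this window. On chromosome 7, NDUFA5 (chr7:123557819-123558068, minus strand) has the NRF1 letters and NDUFB2 (chr7:140696458-140696707, plus strand) has neither. The members shown from 1 chromosome thus did not share these letters.

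The first question was whether the HoxBan tube by itself altered the respiratory chain, and it was read from monoculture against 2D in each line. In WT cells, 5 of 80 members rose and none fell. The 5 were ATP5ME, UQCRB, NDUFB1, NDUFA4 and COX7C, at 1.31 to 1.47-fold. Of all 12849 genes, 6.19% rose and 8.59% fell, so members rose about as often as any gene. With no member lower past the threshold in edgeR, 16 members had an unadjusted p under 0.05 in either direction, and DESeq2 called 9, all higher. The median member was 0.13 higher on the log2 scale, against 0.01 for all genes, and 62 of 80 were on the higher side.

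ATP5ME, subunit e of the ATP synthase dimer, was at 100, 106, 94.8 and 122 CPM in the 4 WT 2D libraries and at 140, 168 and 164 CPM in the 3 monoculture libraries. The groups did not overlap, and the log2 fold change was 0.56 ± 0.14 (SE), with an adjusted p of 0.00593 by edgeR. UQCRB, the ubiquinone-binding subunit of complex III, was at 452, 447, 450 and 476 CPM in 2D and at 558, 662 and 634 CPM in monoculture. It too did not overlap, at 0.42 ± 0.11 (adjusted p = 0.0091). NDUFB1 of the complex I membrane arm (0.49 ± 0.16, adjusted p = 0.0345), NDUFA4 (0.39 ± 0.13, adjusted p = 0.0497) and COX7C (0.39 ± 0.13, adjusted p = 0.0498) passed more narrowly. ATP5ME passed without any single library, with an adjusted p of at most 0.0412 without library 29. UQCRB was lost without library 19 (adjusted p = 0.0567) or 29, NDUFB1 without 5 of the 28 libraries, NDUFA4 without 22 and COX7C without 25. The count of higher members was 1 without library 29, 2 without library 5, 8, 12 or 19, and 3 without 16 other libraries.

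In e.v. cells, 7 members rose and 2 fell, beside 10.3% and 11.3% of all genes. ATP5MG, UQCRB, COX6A1, NDUFV3, ATP5MC2, NDUFA3 and NDUFA5 rose, and NDUFS1 and NDUFC2 fell. ATP5MG was at 867, 783 and 883 CPM in 2D and at 1437, 1555 and 1139 CPM in monoculture, 0.69 ± 0.18 higher (adjusted p = 0.00736 by edgeR). COX6A1, the general isoform of a complex IV subunit, was at 237, 200 and 239 CPM in 2D and at 324, 351 and 303 CPM in monoculture (0.52 ± 0.15, adjusted p = 0.0151). Neither gene's groups overlapped. NDUFS1, the largest core subunit of complex I, was at 253, 235 and 231 CPM in 2D and at 210, 168 and 152 CPM in monoculture (fell by 0.46 ± 0.15 on the log2 scale, adjusted p = 0.0339). Every monoculture library was below every 2D library. The e.v. calls rested on single libraries. Without library 15 no member was called in either direction, without library 26 only 1 rose, and without library 25 there were 12 higher and 0 lower. The lower count was 6 without library 11 and 0 without library 23 or 32. ATP5MG was lost without library 15 (adjusted p = 0.0528).

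In cl.21 cells, 1 member rose and 2 fell, beside 10.1% and 10% of all genes (20.1% in either direction). COX7A2L, which joins complexes III and IV into supercomplexes, was at 104, 107 and 106 CPM in 2D and at 149, 143 and 192 CPM in monoculture. The groups did not overlap, and the log2 fold change was 0.61 ± 0.18 (adjusted p = 0.0144 by edgeR; 0.115 without library 24, whose value is the highest). CYC1, the cytochrome c1 that hands electrons to cytochrome c, was at 141, 134 and 139 CPM in 2D and at 102, 105 and 68.3 CPM in monoculture. It fell by 0.60 ± 0.21 on the log2 scale (adjusted p = 0.0467), and this call was lost without 16 of the 28 libraries. The median member was at -0.01, and at 0.01 without library 24. Without library 24 no member passed, and without library 2, 4 or 31 none was lower.

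NDUFC2, a membrane-arm subunit of complex I, had the lowest log2 fold change of the tested members in all 3 lines. It was at 363, 429, 445 and 423 CPM in WT 2D and at 309, 288 and 222 CPM in WT monoculture. In e.v. cells it went from 396, 393 and 440 to 352, 247 and 141 CPM, and in cl.21 cells from 413, 440 and 455 to 263, 309 and 191 CPM. In each line all monoculture libraries were below all 2D libraries. It fell by 0.75 ± 0.25 in e.v. (adjusted p = 0.035 by edgeR) and by 0.78 ± 0.25 in cl.21 (adjusted p = 0.0287), and in WT the difference was -0.62 ± 0.24 (adjusted p = 0.0809). The e.v. call was lost without any of 5 libraries (highest adjusted p = 0.193, without library 25), and the cl.21 call likewise without any of 5 (0.15, without library 24). Both of these libraries had the highest mitochondrial share of their groups, 23.3 and 17.6%.

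The 3 lines share no libraries, and their directions are set side by side here. The labels do not say whether the lines were grown in the same runs, so their agreement may not be independent. Of 80 members, 34 were higher and 15 lower in monoculture in all 3 lines. Of these 80, 15 passed in at least 1 line, 2 in 2 lines (UQCRB and NDUFC2) and none in all 3. The like shares over all genes are not given here, so these counts do not set the members apart from other genes. COX7A2L was 0.46 ± 0.16 higher in WT (adjusted p = 0.058) and 0.44 ± 0.18 in e.v. (adjusted p = 0.0746). ATP5MC2 was 0.38 ± 0.16, 0.53 ± 0.17 and 0.47 ± 0.17 higher in WT, e.v. and cl.21, and passed in e.v. alone. ATP5ME was 0.39 ± 0.15 higher in e.v. and 0.13 ± 0.14 in cl.21, and neither passed. SDHA, the catalytic subunit of complex II, was at -0.26 ± 0.14, -0.28 ± 0.15 and -0.28 ± 0.15, and passed in no line. The difference of the monoculture effect between lines was tested for every gene as an interaction. No member differed between cl.21 and e.v. or between e.v. and WT (0% of all genes did), 1 member in each had an unadjusted p under 0.05, and DESeq2 called no member.

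**Figure D1:**
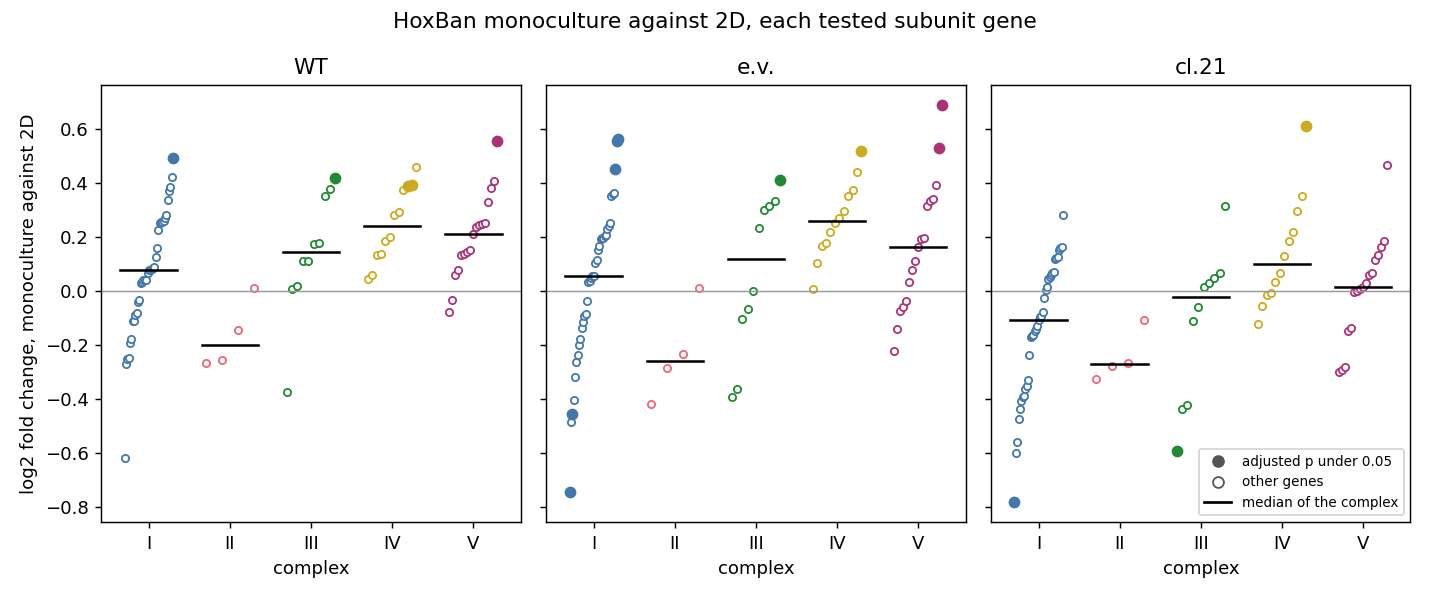
Log2 fold change of each tested member in HoxBan monoculture against 2D, in 3 panels for WT, e.v. and cl.21, by complex. Filled points passed an adjusted p of 0.05 in edgeR and black bars are the median of each complex; the complex II median is below 0 and the complex IV median above 0 in each panel, at -0.20 and 0.24 in WT.

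The complexes differed in order. In WT the median log2 fold change was 0.24 for complex IV, 0.21 for complex V, 0.14 for complex III, 0.08 for complex I and -0.20 for complex II. In e.v. the medians were 0.26, 0.16, 0.12, 0.05 and -0.26, and in cl.21 they were 0.10, 0.01, -0.02, -0.11 and -0.27. In all 3 lines complex IV was thus highest and complex II lowest. None of the 4 complex II genes passed in any line, with no unadjusted p under 0.05 and no call by DESeq2. All 12 tested complex IV genes were on the higher side in WT and e.v. and 8 in cl.21.

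Summed levels showed the same. Complex V rose from 6666 to 7589 CPM over the WT 2D libraries to 8040 to 8736 CPM in monoculture, a ratio of 1.17 ± 0.0857 (SD propagated from the libraries). Complex IV went from 3769 to 4271 to 4547 to 5261 CPM (ratio 1.20 ± 0.121), and complex III from 1893 to 2118 to 2297 to 2498 CPM (1.17 ± 0.0756). For these 3 complexes the WT groups did not overlap, while complexes I and II overlapped. Complex II was at 548 to 599 CPM in 2D and at 495 to 554 CPM in monoculture. Of single genes, 26 of 80 members had every WT monoculture library above every 2D library and 2 had every one below, beside 12.2% and 13.8% of all genes. In e.v. these were 19 above and 4 below (17.8% and 19.7% of all genes), and in cl.21 8 above and 15 below (18.4% and 19.9%). In e.v. all 5 complexes overlapped between monoculture and 2D, and library 25 had the lowest monoculture value of each. In cl.21 complex IV alone did not overlap (4090 to 4159 CPM in 2D, 4322 to 4622 CPM in monoculture). In bulk RNA, fewer cells of a kind and less RNA per cell cannot be told apart, and the sums are shares of all RNA counted.

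Some other genes of the same pathway also changed, in both directions. Of 52 assembly factors, 4 rose in WT, 4 rose and 2 fell in e.v., and 3 rose and 4 fell in cl.21. The shares of all genes called in each line are given above, and this list was not tested against them. UQCC1 and COA7 fell in e.v., at -0.61 ± 0.14 and -0.89 ± 0.23. In cl.21, LYRM7, NDUFAF1, ATPAF1 and UQCC1 fell, at -0.81 ± 0.19, -0.66 ± 0.20, -0.52 ± 0.16 and -0.40 ± 0.14. PET117 and COX14, both needed to build complex IV, rose in all 3 lines, PET117 by 0.53 ± 0.16, 0.73 ± 0.17 and 0.80 ± 0.17 and COX14 by 0.63 ± 0.17, 0.90 ± 0.18 and 0.55 ± 0.18. CYCS, the cytochrome c that carries electrons between complexes III and IV, rose by 0.57 ± 0.13, 0.60 ± 0.14 and 0.49 ± 0.14, and COQ4 of ubiquinone synthesis by 0.72 ± 0.17, 0.83 ± 0.18 and 0.51 ± 0.18. All of these passed in edgeR. Of 13 tested regulators of mitochondrial biogenesis, TFAM, which packs and transcribes mitochondrial DNA, rose in WT (0.43 ± 0.14) and e.v. (0.55 ± 0.15). NRF1 fell in all 3 lines, by 0.79 ± 0.26, 1.20 ± 0.28 and 0.99 ± 0.27 on the log2 scale, and PPARGC1B, a coactivator of respiratory genes, fell in WT (by 1.24 ± 0.32) and e.v. (by 1.87 ± 0.35). POLRMT, another of these regulators, passed in cl.21 at -0.82 ± 0.25 (adjusted p = 0.0195 by edgeR). Of 19 TCA cycle genes, none passed in WT or cl.21 in edgeR (3 and 1 had an unadjusted p under 0.05, and DESeq2 called none), and in e.v. PDHX rose and OGDH fell.

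The 13 subunits encoded in mitochondrial DNA had medians of 0.52, 1.18 and 0.33 on the log2 scale, with a median SE of 0.64 to 0.70, and MT-CO1 alone passed in all 3 lines. Their summed level ranged from 17599 to 87724 CPM among the WT 2D libraries alone. Cytosolic ribosomal protein genes, another set of short abundant RNAs, rose more than the members. Of 84 tested, 9 rose in WT and 25 in e.v., with medians of 0.33 and 0.40, and 2 in cl.21 with a median of 0.26. Mitochondrial ribosomal protein genes had medians of 0.12, 0.01 and -0.07. Member RNAs are short, with a median annotated length of 708 bases against 1816 for all coding genes tested. Over the 80 members, length and the WT log2 fold change had a Spearman rho of -0.22, and over 11500 coding genes of -0.21, given as a description over genes that share the same libraries.

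The share of mitochondrial counts was 4.94 to 14.1% in WT 2D and 6.36 to 15.5% in WT monoculture, so the groups overlapped. With this share as a covariate in edgeR, 18 members rose in WT monoculture, 25 in e.v. and 4 in cl.21. Without the library of the highest share in each group, 1 rose in WT (ATP5ME, adjusted p = 0.048), 9 in e.v. and 0 in cl.21, and none fell in any line. The count of members called thus depended on how the mitochondrial share was handled. The part of all genes called in these alternative fits is not given here, so these counts do not set the members apart from other genes.

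Next, co-culture was compared with monoculture, to ask what the bacterium added. No member passed in any line, and no gene did (0% of 12849). Members with an unadjusted p under 0.05 numbered 2 in WT, 4 in e.v. and 5 in cl.21, and DESeq2 called no member. The medians were 0.11, 0.12 and 0.15 on the log2 scale, against 0.00, -0.01 and -0.02 for all genes, and 69, 69 and 63 of 80 members were on the higher side. Single libraries turned the sign of each median. It was -0.03 in WT without library 3, -0.0036 in e.v. without library 25 and -0.0052 in cl.21 without library 30, and at the other end 0.21, 0.25 and 0.28 without libraries 28, 11 and 17. The summed level of all members was 21483 to 22161 CPM in WT monoculture and 20117 to 27739 CPM in WT co-culture, a ratio of 1.07 ± 0.181. In e.v. the ratio was 1.09 ± 0.193 and in cl.21 1.06 ± 0.222. Each ratio was within 1 SD of 1, and the co-culture libraries overlapped the monoculture libraries in every complex and line. The highest WT co-culture sum, in library 3, came with a share of mitochondrial counts of 7.79%, the lowest of its group, and the lowest, in library 28, with 20.4%, the highest. The members with the highest fold were UQCRC1 in cl.21 (0.49 ± 0.18, adjusted p = 0.64), NDUFB7 in e.v. (0.47 ± 0.20, adjusted p = 0.78) and ATP5PD, a stalk subunit of ATP synthase, in WT (0.38 ± 0.18, adjusted p = 1.00).

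The HIF1A-null clone cl.21 was compared with e.v. in 2D and over both HoxBan cultures. As 1 clone, it cannot show which differences come from the loss of HIF1A. In 2D no member passed in edgeR, beside 0.537% of genes higher and 0.467% lower. 8 members had an unadjusted p under 0.05 and DESeq2 called 1, COX5A, a complex IV subunit (346, 337 and 390 CPM in cl.21 2D and 245, 245 and 273 CPM in e.v. 2D, 0.48 ± 0.14, edgeR adjusted p = 0.136). The median was 0.13 higher in cl.21, 64 of 80 members were on that side, and 30 of 80 had every cl.21 library above every e.v. library and 0 had every one below, beside 11.5% and 10.0% of all genes. The median was 0.08 without library 26 and 0.18 without library 32. NDUFA3 had the highest fold at 0.60 ± 0.19 (adjusted p = 0.178). Against WT in 2D, however, the cl.21 median was 0.03, and the e.v. median was -0.11, with 19 of 80 members having every e.v. library below every WT library and 0 above, beside 7.36% and 7.92% of all genes. For cl.21 against WT, 4 were above and 3 below (7.42% and 5.7% of all genes). Without single libraries the cl.21 median ran from 0.0082 (without library 5) to 0.07 (without library 27), and the e.v. median from -0.15 (without library 32) to -0.04 (without library 26). These comparisons share their libraries. No member passed in either, beside 1.46% of genes called for cl.21 and 1.28% for e.v. (0.809% higher and 0.467% lower). Each had 7 members with an unadjusted p under 0.05, and DESeq2 called 0 and 1, the latter NDUFA5.

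Some HIF1 targets that act on mitochondria were lower in the HIF1A-null clone. PDK1 was 1.98 ± 0.47 lower in cl.21 than in e.v. in 2D and 1.18 ± 0.32 lower in HoxBan, and BNIP3, a mitophagy receptor, was 1.79 ± 0.45 lower in HoxBan. All 3 values passed in edgeR, while BNIP3 in 2D was at -1.82 ± 0.61 and did not pass (adjusted p = 0.236). The summed level of the 10 listed targets was 291 to 295 CPM in cl.21 2D, 399 to 516 CPM in e.v. 2D and 483 to 1055 CPM in WT 2D. In e.v. against WT in 2D, BNIP3 was at -1.37 ± 0.55 (adjusted p = 0.316 by edgeR) and PDK1 at -0.84 ± 0.41 (adjusted p = 0.453), and neither passed. LONP1, the protease that removes COX4I1 when isoforms are exchanged, was at -0.18 ± 0.15 in HoxBan and did not pass. In HoxBan the subunits themselves had a median of -0.03. It ran from -0.09 without library 30 to 0.05 without library 17, and was above 0 without any of 4 libraries (11, 17, 22 or 24).

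Over both HoxBan cultures, 3 members were lower in cl.21 than in e.v. and 1 was higher, beside 2.72% and 2.84% of all genes (5.56% in either direction). The 3 were NDUFV3, an accessory subunit at the NADH end of complex I, and ATP5PF and ATP5PO, both of the stalk that holds the ATP synthase head (coupling factor 6 and OSCP). NDUFV3 was at 131, 139, 118, 105, 119 and 112 CPM in the cl.21 HoxBan libraries and at 174, 174, 133, 159, 164 and 169 CPM in e.v. (fell by 0.42 ± 0.12 on the log2 scale, adjusted p = 0.0362 by edgeR). ATP5PF was at 260, 298, 242, 211, 281 and 300 CPM in cl.21 and at 408, 345, 255, 364, 356 and 375 CPM in e.v. (fell by 0.39 ± 0.11, adjusted p = 0.0385). ATP5PO was at 253, 300, 246, 206, 346 and 372 CPM in cl.21 and at 434, 382, 297, 360, 387 and 451 CPM in e.v. (fell by 0.41 ± 0.12, adjusted p = 0.0485). For each gene the groups overlapped, and the lowest e.v. value was in library 25. NDUFB6, a membrane-arm subunit of complex I, rose by 0.49 ± 0.15 (adjusted p = 0.0479), with a median of 118 CPM in cl.21 and 90.1 CPM in e.v. All 4 calls were lost on leaving out single libraries, NDUFV3 and ATP5PF without 9 of the 28 each, ATP5PO without 20 and NDUFB6 without 24. Their highest adjusted p were 0.0933, 0.121, 0.140 and 0.140. No member was lower without library 4, 11, 15, 17, 18, 22 or 24, and none passed without the libraries of highest mitochondrial share.

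The 3 lower members are the 3 members on chromosome 21, and they were chosen for a closer look after their values were seen. ATP5PF lies at chr21:25716503-25735673, ATP5PO at chr21:33903453-33915980 and NDUFV3 at chr21:42879644-42913304 (GRCh38, GENCODE release 29). The other 123 tested genes of chromosome 21 were also lower in cl.21 than in e.v., with a median of -0.27 in HoxBan (80.5% of genes below 0) and of -0.32 in 2D (86.2%). This was the lowest median of 23 chromosomes in both. GABPA, an ETS factor of respiratory genes and the neighbour of ATP5PF on the opposite strand, was at means of 17.1 to 18.7 CPM in the cl.21 groups and of 22.6 to 24.5 CPM in the e.v. groups, and did not pass (adjusted p = 0.177 in HoxBan by edgeR). The chromosomes of these cells were not measured here.

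Against WT in HoxBan, 4 members were lower in cl.21 and none higher, beside 4.73% and 6.62% of all genes. They were NDUFA5, ATP5PO, ATP5PF and NDUFB2. ATP5PO was at 206 to 372 CPM in cl.21 (median 276, n = 6) and at 379 to 515 CPM in WT (median 402, n = 6), with no overlap (fell by 0.55 ± 0.12 on the log2 scale, adjusted p = 0.00507 by edgeR). ATP5PF was at 211 to 300 CPM and at 303 to 451 CPM, again with no overlap (fell by 0.44 ± 0.11, adjusted p = 0.0119). NDUFA5, of the arm of complex I that reaches into the matrix, was at 132 to 207 CPM in cl.21 and at 209 to 265 CPM in WT, with no overlap (fell by 0.50 ± 0.11, adjusted p = 0.00429). ATP5PO, ATP5PF and NDUFA5 passed without any single library, with adjusted p of at most 0.0192 (ATP5PO), 0.0481 (ATP5PF) and 0.0196 (NDUFA5). Without the libraries of highest mitochondrial share 2 were called, ATP5PO (0.0269) and ATP5PF (0.0421), and NDUFA5 was at 0.0639. NDUFB2 was at 51.1 to 84.2 CPM and at 83.6 to 106 CPM, and overlapped (fell by 0.44 ± 0.12, adjusted p = 0.021, lost without any of 5 libraries, highest 0.0766 without library 24). Its 3′ end overlaps an exon of a gene on the opposite strand with 33.5% as many counts, and without a stated strand setting their reads may be shared. NDUFV3 was at -0.22 ± 0.12 (adjusted p = 0.25). The other chromosome 21 genes had a median of -0.34, with 74.8% below 0, again the lowest of 23 chromosomes.

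In 2D no member passed between cl.21 and WT, and the chromosome 21 members were on the lower side. ATP5PO was at 278, 291 and 306 CPM in cl.21 2D and at 352, 349, 368 and 396 CPM in WT 2D. ATP5PF was at 245, 243 and 273 CPM and at 279, 308, 284 and 307 CPM. NDUFV3 was at 106, 114 and 99.1 CPM and at 117, 156, 128 and 134 CPM. All cl.21 libraries were below all WT libraries for each of the 3 genes, with log2 fold changes of -0.34 ± 0.17, -0.23 ± 0.15 and -0.35 ± 0.16 and adjusted p of 0.512, 0.739 and 0.453 in edgeR. Against e.v. in 2D the log2 fold changes were -0.18 ± 0.18, -0.20 ± 0.16 and -0.03 ± 0.17, since NDUFV3 was also at -0.32 ± 0.16 in e.v. against WT.

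The e.v. cells, which carried the construct and had gone through selection, were also set against WT. Over both HoxBan cultures, 4 members were lower in e.v. and none higher, beside 4.9% and 6.09% of all genes. ATP5MC1, a gene of the c ring, was at 159, 199, 142, 152, 187 and 175 CPM in e.v. and at 243, 242, 251, 263, 260 and 198 CPM in WT. It fell by 0.52 ± 0.12 on the log2 scale (adjusted p = 0.00732 by edgeR, at most 0.0289 without library 25), and the groups overlapped by 1 library. NDUFA4 was at 472, 409, 314, 454, 463 and 472 CPM in e.v. and at 485, 673, 554, 641, 514 and 553 CPM in WT, with no overlap (fell by 0.41 ± 0.10, adjusted p = 0.0109, at most 0.0428 without library 25). ATP5MF, subunit f of ATP synthase, was at 92.0 to 122 CPM in e.v. and at 113 to 218 CPM in WT, with overlap (fell by 0.49 ± 0.14, adjusted p = 0.02). NDUFA9, at the ubiquinone site of complex I, was at 82.1 to 130 CPM and at 116 to 162 CPM, with overlap (fell by 0.46 ± 0.13, adjusted p = 0.0197). ATP5MF was lost without library 3, 16, 25 or 29 (highest adjusted p = 0.0775), and NDUFA9 without library 3, 14, 25 or 29 (highest 0.0632). The number of lower members was 2 without library 3, 25 or 29 and 7 without library 11. Without the libraries of highest mitochondrial share, ATP5MF alone was called (0.0109), with ATP5MC1 at 0.0503 and NDUFA4 at 0.209.

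All 4 tested members on chromosome 7 were lower in e.v. than in WT, in HoxBan and in 2D, and this too was seen after the values were known. Besides NDUFA4 (chr7:10931951-10940256) and ATP5MF (chr7:99448475-99466331), these were NDUFA5 (chr7:123536997-123558255), at -0.30 ± 0.11 in HoxBan (adjusted p = 0.0814), and NDUFB2 (chr7:140690777-140722790), at -0.28 ± 0.12 (adjusted p = 0.139). In 2D the 4 log2 fold changes were -0.35 ± 0.14, -0.39 ± 0.18, -0.50 ± 0.15 and -0.24 ± 0.16, and none passed. NDUFA4 was at 332, 357 and 328 CPM in e.v. 2D and at 405, 407, 465 and 441 CPM in WT 2D, with no overlap. The other 600 tested genes of chromosome 7 had a median of -0.26 in HoxBan and of -0.25 in 2D, the lowest of 23 chromosomes in both, with 76.2 and 81.0% of genes below 0. Against WT, cl.21 had chromosome 7 medians of -0.12 in HoxBan and -0.13 in 2D.

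**Figure D2:**
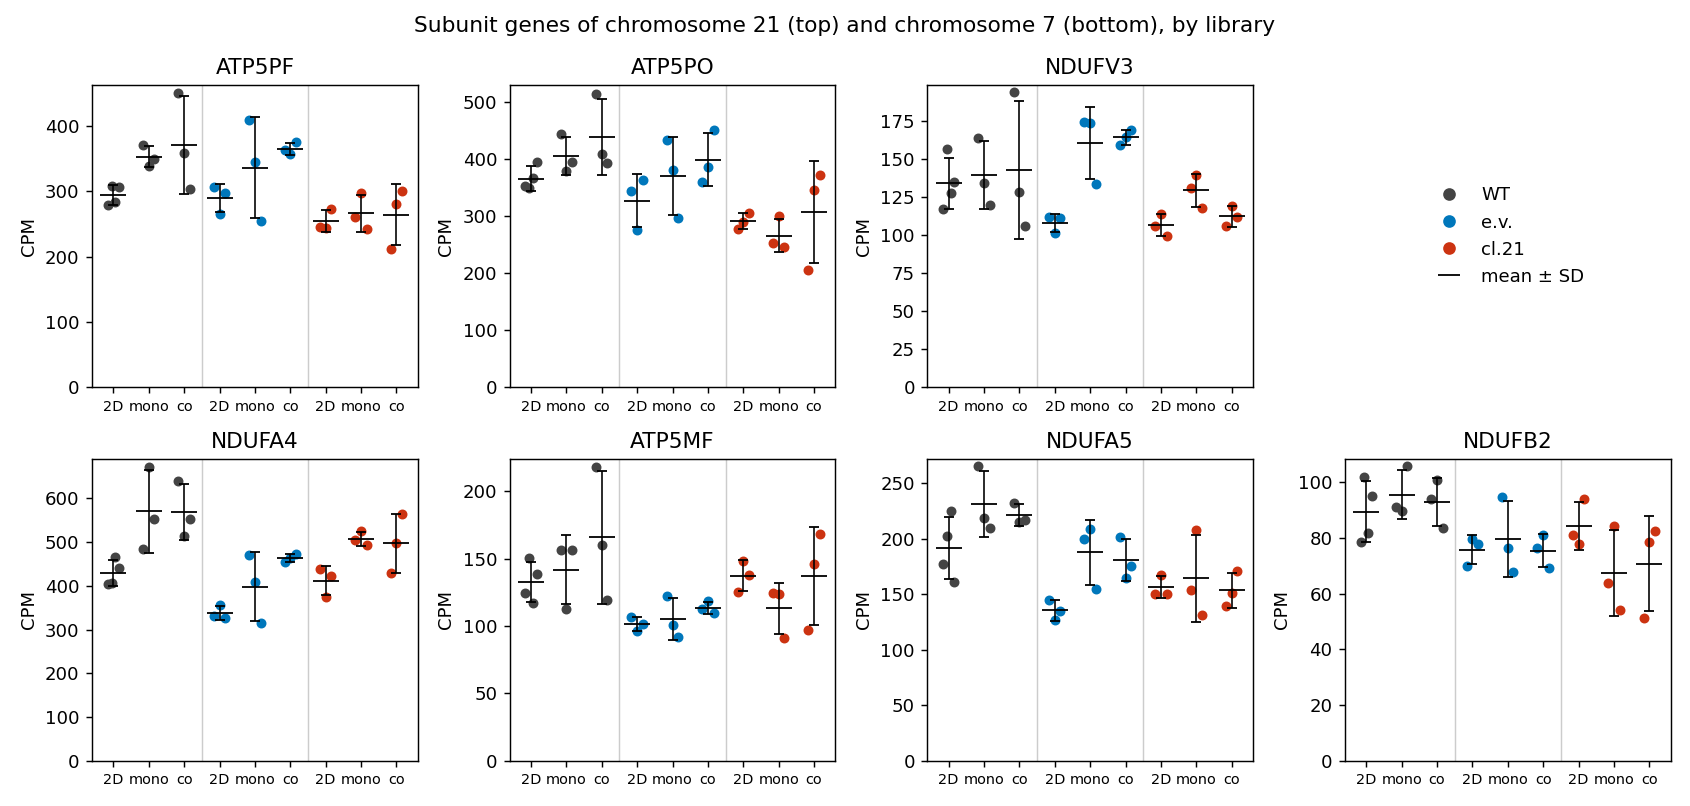
Levels in CPM (axes from 0) of the members on chromosome 21 (ATP5PF, ATP5PO, NDUFV3) and on chromosome 7 (NDUFA4, ATP5MF, NDUFA5, NDUFB2), by library, in 2D, monoculture (mono) and co-culture (co). Points are libraries and bars are the mean ± SD; ATP5PO in cl.21 HoxBan libraries lies at 206 to 372 CPM, below the WT libraries at 379 to 515 CPM.

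The chromosome medians were also taken in each library. The median of the 123 other chromosome 21 genes, set against that of all genes and centred on WT, was -0.38 to -0.22 in the 9 cl.21 libraries, -0.15 to 0.06 in the 9 e.v. libraries and -0.08 to 0.08 in the 10 WT libraries. The median of the 600 chromosome 7 genes was -0.25 to -0.18 in e.v., -0.18 to -0.05 in cl.21 and -0.02 to 0.02 in WT. In e.v. the chromosome 21 values were -0.0046 to 0.06 in the 2D libraries and -0.15 to -0.07 in the HoxBan libraries, which did not overlap. Chromosome 21 in cl.21 did not overlap with either other line, and chromosome 7 in e.v. did not overlap with WT. Members on these chromosomes were thus lower together with their neighbours of other functions, and whether their chromosome accounts for their level was not tested.

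Some pathway genes around the members also differed between the lines in HoxBan. The shares of all genes called in these comparisons are given above, and the lists were not tested against them. Chromosome 7 genes were lower as a whole in e.v. and chromosome 21 genes in cl.21. On which chromosomes the genes named here lie was not taken into account. Of 19 TCA cycle genes, 5 were lower in e.v. than in WT, among them IDH2 (fell by 0.82 ± 0.20 on the log2 scale), OGDH (by 0.68 ± 0.15), SUCLA2 (by 0.47 ± 0.10) and DLD (by 0.42 ± 0.09). Of 52 assembly factors, 5 were lower and 1 higher, with UQCC1, which builds complex III, falling by 0.63 ± 0.10. Between cl.21 and e.v., UQCC1 rose by 0.34 ± 0.10 and COX20 and SDHAF3, of complexes IV and II, fell by 0.51 ± 0.11 and 0.89 ± 0.26. PPARGC1B rose by 1.20 ± 0.26 (adjusted p = 0.00505 by edgeR), after -0.84 ± 0.27 in e.v. against WT (adjusted p = 0.0413), a pair of comparisons that share the e.v. libraries. SUCLG2 of the TCA cycle fell by 0.58 ± 0.11 (adjusted p = 0.00185) and KRT19, an epithelial keratin, by 0.72 ± 0.14 (adjusted p = 0.00162). LYZ, on the list of other cell types and also made by gut epithelium, was 2.42 ± 0.27 higher in e.v. than in WT in HoxBan and 1.80 ± 0.26 lower in cl.21 than in e.v. The summed markers of other cell types were at 72.5 to 102 CPM in e.v. co-culture and at 54.2 to 60.7 CPM in WT co-culture, and their part in these differences was not tested.

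The single WT libraries gave values without replicates. The summed level of all members was 19994 CPM in monoculture with inulin, 20375 CPM in monoculture with mucin, 22374 CPM in stool culture with inulin and 24215 CPM in stool culture with mucin. The WT monoculture libraries in the standard medium were at 21483 to 22161 CPM. The pair with stool was thus above the pair without, with mitochondrial shares of 9.04 and 8.04% against 7.70 and 7.29%, and no test was made on these single libraries.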

How the data were processed

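RNA was measured by QuantSeq 3′ sequencing in 32 libraries, 28 of them in 9 groups. The authors deposited counts per Ensembl gene on GRCh38. The read aligner, the counter, whether it used strand and which annotation it used: not given in the sources used here. Names came from a table of identifiers (56104 rows) and from GENCODE release 29 (427 rows), and unnamed rows held 0.0679% of the counts.

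Counts were scaled by TMM and tested in 1 fit of 28 libraries with edgeR's quasi-likelihood test after its filter on low counts (12849 genes, coefficient of biological variation 0.201, 19 degrees of freedom left). Tests were two-sided, with Benjamini-Hochberg adjustment over all genes and a threshold of 0.05. HoxBan contrasts between lines used the mean of both cultures. Levels are CPM per 1e+06 TMM-scaled counts over all 32 libraries. Intervals and floors cover counting error only, as reads carry no molecular identifiers.

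The members and lists were chosen with earlier results of these data known. Named were a fixed set of core subunits, all called members up to 12 per comparison, the highest and lowest member, up to 4 called genes of each other list and the members that failed the filter. Members grouped by chromosome were picked once their values had been seen.

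Other settings tried were DESeq2, its size factors in edgeR (RLE), no filter, only the groups compared, no mitochondrial rows, the mitochondrial share as a covariate and each library left out in turn. Leaving out the library of highest mitochondrial share in each group was added after seeing the data. Simulated counts with 200 changed genes were used to test the procedure. Figures were drawn with matplotlib 3.10.9 and tables made with pandas 2.3.3 under Python 3.11.15, with scipy at 1.17.1 and numpy at 2.4.6. DESeq2 was version 1.42.0, edgeR version 4.0.16 and limma version 3.58.1, run in R 4.3.3.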

Additional observations from a re-analysis of the deposited data

Results flagged for a closer look

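NDUFB2 in monoculture lay on opposite sides of its 2D mean in WT and cl.21. The log2 fold changes were 0.08 ± 0.16 and -0.33 ± 0.17, and neither passed in edgeR. Every WT monoculture library was above the 2D mean, with a mean difference of 6.17 CPM. Every cl.21 monoculture library was below the 2D mean, with a mean difference of -16.9 CPM. NDUFB6 had the same pattern, at 14.7 CPM in WT and -7.29 CPM in cl.21. Its log2 fold changes were 0.22 ± 0.19 and -0.09 ± 0.21, and neither passed. UQCRHL, at about 1 CPM, was 0.432 CPM higher in WT monoculture and 0.355 CPM lower in e.v. monoculture than in 2D (difference -0.355 CPM). The differences of NDUFB2 and NDUFB6 between WT and cl.21 were not tested. That of UQCRHL between e.v. and WT was -0.74 ± 0.66 on the log2 scale and did not pass in edgeR.

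Some single WT libraries lay above all 3 WT monoculture libraries in standard medium. In stool culture with mucin, complex II summed to 577 CPM, complex III to 2743 CPM and complex V to 9691 CPM, where the highest monoculture library had 554, 2498 and 8736 CPM. In stool culture with inulin, complex II summed to 562 CPM. There is 1 library of each, so these are values without a test. In WT 2D, the only group of 4, none of the 36 values tested (the complex sums and the named members) had a library set apart by Dixon's test.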

How the results depend on the processing

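No paired analysis was made, because the labels do not say which libraries of different groups belong together, if any do. Summed complex ratios moved by less than their SD in every alternative, and the chromosome 7 and 21 medians kept their sign in all of them; 1 of 70 moved by more than its spread, e.v. against WT in 2D for chromosome 7 (-0.29 without the libraries of highest mitochondrial share). Counts of called members were less stable, 39 of 196 moving by over 1.5 times. The causes were not tested, and the part of all genes called in each alternative is not given here.

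With DESeq2, members higher were 9 in WT and 3 in cl.21 for monoculture against 2D, 1 for cl.21 against e.v. in 2D and 3 in HoxBan, and 1 was lower for e.v. against WT in 2D. With RLE factors, cl.21 monoculture had 3 higher and 1 lower. Without mitochondrial rows, cl.21 against e.v. in HoxBan had 0 higher. With the mitochondrial share as a covariate, higher members were 18 (WT), 25 (e.v.) and 4 (cl.21) in monoculture, 1 and 3 for cl.21 against e.v. in 2D and HoxBan, and 1 for cl.21 against WT in 2D. Without the filter, monoculture had 1 higher and 1 lower in WT, 1 and 1 in e.v. and 2 higher in cl.21, cl.21 against e.v. in HoxBan had 0 lower, and cl.21 against WT in 2D had 1 higher. With only the groups compared, the counts were 2 higher and 1 lower in WT, 3 and 0 in e.v., 2 higher for cl.21 against e.v. in 2D, 0 and 0 in HoxBan, 1 lower for e.v. against WT in HoxBan, and 1 higher in 2D and 2 lower in HoxBan for cl.21 against WT. Without the libraries of highest mitochondrial share, 1 was higher in WT, 0 lower in e.v., and 0 higher and 0 lower in cl.21, with 0 and 0 for cl.21 against e.v. in HoxBan, 1 lower for e.v. and 2 lower for cl.21 against WT in HoxBan.

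Leaving out 1 library at a time gave 1 to 6 higher and 0 to 1 lower in WT monoculture, 0 to 12 and 0 to 6 in e.v., and 0 to 2 and 0 to 3 in cl.21. It gave 0 to 3 higher and 0 to 3 lower for cl.21 against e.v. in HoxBan, 0 to 1 higher for cl.21 against WT in 2D, and 0 to 1 higher and 2 to 7 lower for e.v. against WT in HoxBan. Of single named members, UQCRHL alone changed sign, in e.v. against WT in 2D (0.24, with -0.0083 without library 5, and -0.023 to 0.56 over all single libraries left out, the lowest without library 23). In the simulated WT monoculture comparison, most changes of 1.5-fold in genes of all levels were missed. Changes under 2-fold may be missed among the members too, at a rate that was not measured.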
